A study of Mus musculus with 4 samples.

Results

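The genes of adult haemoglobin and 4 further erythroid genes were followed across peritoneal exudate cells of 2 genotypes, each with and without lipopolysaccharide (LPS). The list names 9 genes, which were found through the RefSeq accession of each array probe. They comprise the beta globin genes Hbb-bt, Hbb-b1 and Hbb-b2, the alpha globin genes Hba-a1 and Hba-a2, and Alas2, Slc4a1, Klf1 and Epb42. All 9 had a probe, out of 22911 genes matched on the array, and they took 11 of 56605 probes. The list was chosen by reference to genotype and LPS signals already seen on these same 4 arrays, as a readout of red cell carry-over, so the genotype values below are a description and carry no test.

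The 4 groups were LysM-St18flox cells at 3 h of LPS, LysM-St18flox cells at 0 h, wild-type cells at 3 h and wild-type cells at 0 h, with 1 array (1 sample) in each. Mice had received thioglycollate, an irritant that recruits leukocytes into the peritoneal cavity, before lavage. The cell type label reads peritoneal macrophage and the titles read PEC. In the genotype's name, LysM is the lysozyme locus, whose promoter is widely used to drive recombination in myeloid cells, and St18 is a transcription factor gene. The labels do not state strain, age, LPS dose, the alleles of the wild-type mice, or whether the 0 h and 3 h cells of a genotype came from 1 mouse. No group has a replicate array and no test was run, so no p-value is given, and a difference counts here when it is at least 2-fold.

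Haemoglobin is a tetramer of alpha and beta globin chains, each holding a heme group. Globin transcripts accumulate to very high levels in erythroblasts and persist in reticulocytes after the nucleus is lost, while mature red cells carry little RNA. Transcripts for erythroid transcription factors and many membrane proteins are most abundant in nucleated precursors in the bone marrow and spleen. Hbb-bt belongs to the beta globin haplotype of C57BL/6 mice, and Hbb-b1 and Hbb-b2 to the haplotype of strains such as BALB/c. Globin paralogs are close in sequence, and probes for them may cross-hybridize, so the 3 beta globin probes and the 3 alpha globin probes cannot be read as independent genes.

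Sequence upstream of the start site is shown for the members that were high together in LysM-St18flox cells, an alpha globin, a beta globin and Alas2, and for Klf1, which encodes the erythroid factor that binds CACCC boxes. RefSeq promoter windows (GRCm38.p6) were matched for 6 members, and Hbb-b1, Hbb-b2 and Slc4a1 were not matched. Each line gives the 150 bases before the start site, 5′ to 3′ on the gene's strand. Capitals mark the CACCC box, the CCAAT box, the GATAA motif of GATA factors and the TATAA box, on either strand.
Hba-a1 (chr11:32283522-32283671, plus strand): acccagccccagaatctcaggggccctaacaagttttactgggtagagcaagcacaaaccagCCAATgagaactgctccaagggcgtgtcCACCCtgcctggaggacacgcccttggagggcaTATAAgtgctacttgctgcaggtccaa
Hbb-bt (chr7:103813924-103814073, minus strand): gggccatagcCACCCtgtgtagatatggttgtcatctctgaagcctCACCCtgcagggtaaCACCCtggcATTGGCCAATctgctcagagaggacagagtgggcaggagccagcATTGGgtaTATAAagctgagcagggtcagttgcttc
Alas2 (chrX:150547267-150547416, plus strand): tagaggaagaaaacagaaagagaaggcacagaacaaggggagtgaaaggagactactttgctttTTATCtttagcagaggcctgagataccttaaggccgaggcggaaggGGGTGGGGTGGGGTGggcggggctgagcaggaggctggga
Klf1 (chr8:84901832-84901981, plus strand): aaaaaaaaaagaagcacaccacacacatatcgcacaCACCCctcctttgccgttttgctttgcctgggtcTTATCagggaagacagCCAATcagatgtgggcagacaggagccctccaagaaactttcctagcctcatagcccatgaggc

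The windows of Hba-a1 and Hba-a2 shared a run of 297 identical bases out of 300. In the 250 upstream bases searched on both strands, CACCC occurred in 5 of the 6 members, against 52.0% of 32851 promoter windows. CCAAT occurred in 4 members, against 33.8% of windows, TATAA in 5 members, against 22.8%, and GATAA in all 6, against 22.6%. Both alpha globin windows and that of Hbb-bt held all 4 motifs, as did 0.968% of windows. The TATAA nearest to the start began 27 bases upstream in Hba-a1 and 28 in Hbb-bt. No CCAAT was found in the windows of Alas2 and Epb42. In Alas2 the 3 CACCC matches lay on the opposite strand, the nearest 30 bases upstream, and lay directly end to end. The GATAA matches of Hba-a1 and Hbb-bt lay farther upstream than the bases printed. A match describes these letters and is not a measured binding site.

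The arrays held 59305 non-control spots each, of which between 52.2% and 55.6% were well above background, and none was saturated. The 75th percentile of the signal was 882 and 1067 on the LysM-St18flox arrays at 3 h and 0 h, and 755 and 672 on the wild-type arrays. Values below are log2 signals minus that percentile, so 0 is a bright probe and the lowest signal called well above background was between -4.74 and -4.13. All 13 macrophage markers were above background on all 4 arrays. The brighter St18 probe was not well above background in LysM-St18flox cells, which put it at least 8.48-fold lower than in wild type at 3 h and, at 0 h, at least 7.07-fold lower. Where that probe lies relative to the floxed exons is unknown here, so it checks the labels only in part.

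Beta globin signal was far higher in LysM-St18flox cells at both times, by 8.75-fold or more for each of the 3 probes. The Hbb-bt probe read 3.29 at LysM-St18flox 3 h, 3.04 at LysM-St18flox 0 h, -0.56 at wild-type 3 h and -0.71 at wild-type 0 h. Both LysM-St18flox arrays thus lay above both wild-type arrays, and the times lay close together within each genotype. The difference, LysM-St18flox minus wild type, was 3.84 on the log2 scale at 3 h (14.4-fold) and 3.75 at 0 h (13.4-fold). Hbb-bt ranked 2nd from the highest of 13049 genes measured at 3 h and 3rd of 12679 at 0 h.

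The Hbb-b2 probe read 1.21, 1.13, -2.32 and -2.0 on the LysM-St18flox 3 h, LysM-St18flox 0 h, wild-type 3 h and wild-type 0 h arrays, differences of 3.52 at 3 h and 3.13 at 0 h. The Hbb-b1 probe read -0.67 at 3 h and -0.60 at 0 h in LysM-St18flox cells, and -3.95 in wild-type cells at 3 h. In wild-type cells at 0 h it was not well above background, so its 3 h difference of 3.28 has as its 0 h counterpart only a bound of at least 11.7-fold (log2 3.55). Its wild-type 3 h value lay close to the limit of -4.41 for that array. With normexp background correction its 3 h difference was 2.22 and its 0 h bound was 2.42.

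**Figure D1:**
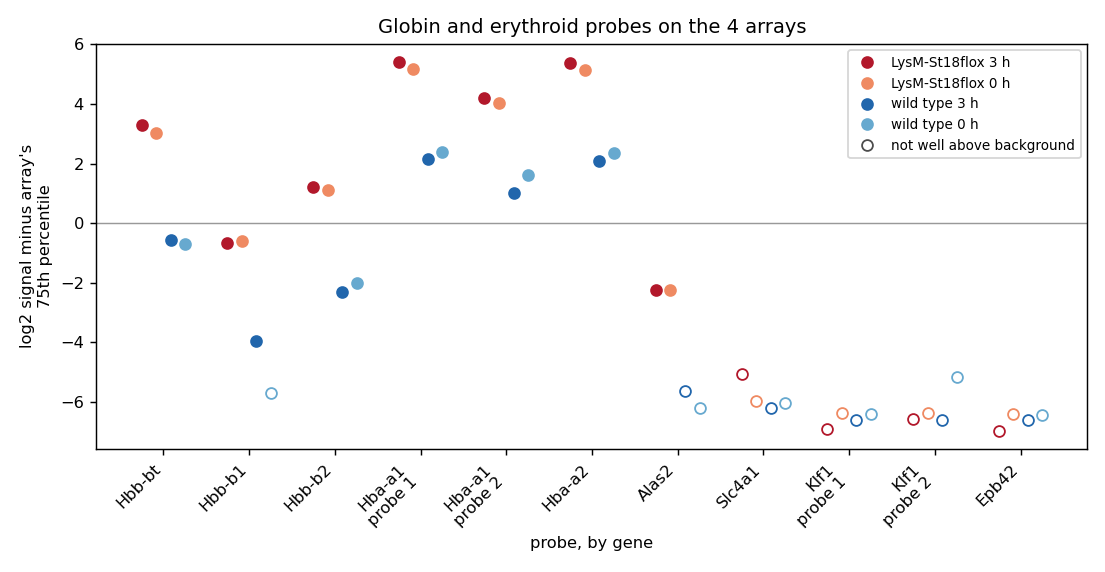
Log2 signal minus the array's 75th percentile (vertical axis) for the 11 member probes (horizontal axis), with 1 point per array and open circles where the probe was not well above background. The globin probes stand higher on both LysM-St18flox arrays than on both wild-type arrays, Alas2 is filled only on the LysM-St18flox arrays, and Slc4a1, Klf1 and Epb42 are open on all 4.

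Alpha globin signal followed the same order. The alpha globin probes were printed 10 times on each array, which gives a measure of spot error that no other member has. The brighter Hba-a1 probe read 5.41 ± 0.03 at LysM-St18flox 3 h, 5.18 ± 0.03 at LysM-St18flox 0 h, 2.16 ± 0.05 at wild-type 3 h and 2.39 ± 0.05 at wild-type 0 h (SD over n = 10 spots of 1 array). The spot ranges of the genotypes did not overlap at either time. Those of the 2 times within a genotype did not overlap either, so this separation of spots is not particular to genotype. The difference was 3.25 (SE over spots 0.02), or 9.50-fold, at 3 h and 2.78 (0.02), or 6.89-fold, at 0 h.

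The Hba-a2 probe read 5.36 and 5.14 in LysM-St18flox cells and 2.09 and 2.35 in wild-type cells at 3 h and 0 h, with differences of 3.27 at 3 h and 2.79 at 0 h. The second Hba-a1 probe read 4.21 and 4.04 in LysM-St18flox cells and 1.01 and 1.61 in wild-type cells. Its difference was 3.20 at 3 h, close to the differences of the other alpha globin probes, and 2.42 at 0 h, smaller than theirs. These spot errors cover the printing and scanning of 1 array and not mice, cultures or labelling.

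**Figure D2:**
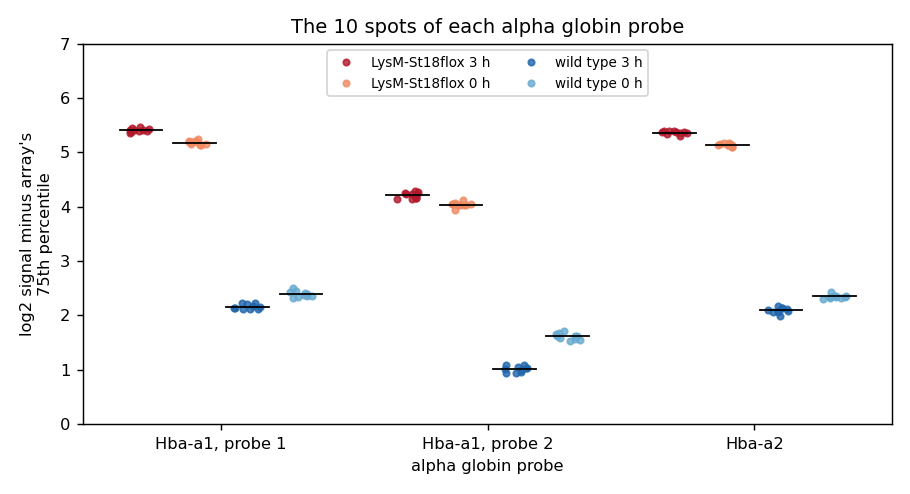
Log2 signal minus the array's 75th percentile (vertical axis) of the 10 spots of each alpha globin probe on the 4 arrays, with the mean as a line. Spots of 1 array spread by an SD of 0.03 to 0.06, and the LysM-St18flox spots of each probe lie above its wild-type spots.

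Counted over the list, 5 of 9 members were measured at 3 h and all 5 were higher in LysM-St18flox cells by 2-fold or more, where 1.82% of all measured genes were. At 0 h, 4 members were measured and all 4 were higher, where 3.04% of measured genes were. None was lower, where 1.4% of genes at 3 h and 3.03% at 0 h were. Because the genes were chosen with this contrast known, nothing is read from these shares. The median difference of the measured adult globins was 3.28 at 3 h and 2.96 at 0 h, beside -0.01 and -0.03 over all measured genes. The 2 genotype differences share no array. In bulk RNA such as this, more cells of a type and more RNA per cell cannot be told apart.

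**Figure D3:**
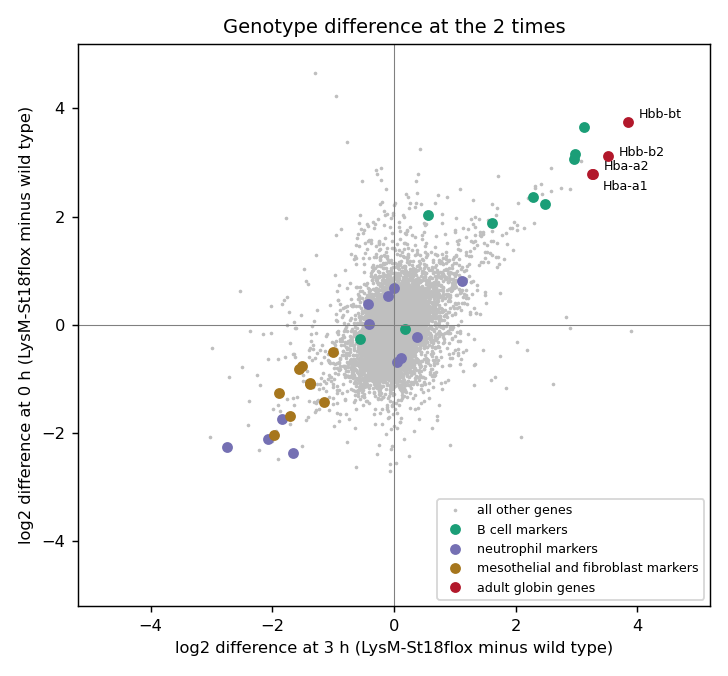
Log2 difference, LysM-St18flox minus wild type, at 3 h (horizontal axis) and at 0 h (vertical axis) for 12344 genes measured on all 4 arrays, with 4 adult globin genes in red and markers of other cells in colour. The globins lie at the upper right, between 3.25 and 3.84 at 3 h and between 2.78 and 3.75 at 0 h, and Hbb-b1 is absent because it was not measured at wild-type 0 h.

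Alas2, the erythroid enzyme that catalyses the first and rate-limiting step of heme synthesis, was above background only in LysM-St18flox cells. Its single probe read -2.23 (3 h) and -2.24 (0 h) on the LysM-St18flox arrays, and it was not well above background at wild-type 3 h (-5.62) or wild-type 0 h (-6.19). That gave bounds of at least 4.51-fold higher at 3 h and at least 3.75-fold higher at 0 h for Alas2. Among genes above background on 1 array only that had a bound in either direction, 18.2% at 3 h and 21.9% at 0 h had one of 2-fold or more in the direction of Alas2. The raw spot was 7.0 and 7.69 times its local background on the LysM-St18flox arrays, against 2.09 and 1.55 times on the wild-type arrays. With normexp correction the bound was 1.20 on the log2 scale at 3 h and 0.97 at 0 h, below the 2-fold limit at 0 h, and with a stricter filter on dim probes it was 0.17 at 3 h with no value at 0 h.

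The other 3 members gave no signal well above background on any array. Slc4a1, which encodes the chloride and bicarbonate exchanger of the red cell membrane, read -5.06 at LysM-St18flox 3 h, -5.96 at LysM-St18flox 0 h, -6.22 at wild-type 3 h and -6.03 at wild-type 0 h. Of the 308 negative control spots on each array, between 2.92% and 5.19% were as bright or brighter. The brighter of 2 Klf1 probes read between -6.61 and -5.18, and Epb42, which encodes a protein that anchors the membrane skeleton, read between -6.97 and -6.40. Between 72.7% and 84.1% of negative control spots were as bright as the Epb42 probe or brighter. These 3 transcripts were not detectable at the sensitivity of the arrays, and no genotype difference can be given for them.

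Other genes of the erythroid programme were read from 4 lists with 52 genes on the array. The embryonic and theta globin list (Hbb-y, Hbb-bh1, Hbb-bh2, Hba-x, Hbq1a and Hbq1b) had 0 of 6 genes above background on any array. These belong to the same clusters as the adult genes, on chromosome 7 for beta and chromosome 11 for alpha. Over the 4 lists, 16 genes were above background on no array and 33 on all 4. Of 33 genes measured at 3 h, 1 was higher and 1 lower by 2-fold or more in LysM-St18flox cells, where 3.22% of all genes were apart (median 0.05), and of 35 at 0 h, 2 were higher and 1 lower, where 6.07% of all genes were apart (median 0.16).

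Among 18 red cell membrane genes, the 7 that were above background on no array included Sptb, a spectrin gene, Rhag and Kel. Aqp1, a water channel gene also used by endothelium and mesothelium, was lower, by -1.65 at 3 h and -1.49 at 0 h. Ank1, the ankyrin gene, was at -0.34 and -0.63, Gypc at 0.62 and 0.24 and Rhd at 0.16 and 0.66. The median of the list was 0.04 at 3 h and -0.42 at 0 h.

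Of 12 genes for erythroid factors and the erythropoietin receptor, 11 were measured, and the receptor gene Epor was above background on no array. Gata1, the factor that governs erythroid, megakaryocytic, mast cell and eosinophil genes, read 0.68 at LysM-St18flox 3 h, 0.34 at LysM-St18flox 0 h, -0.51 at wild-type 3 h and -1.0 at wild-type 0 h. Its differences were 1.19 at 3 h and 1.34 at 0 h. Mast cell markers, which share Gata1, had 4 of 6 measured genes higher at 3 h and 3 of 6 at 0 h. Of all measured genes 1.82% and 3.04% were. The part of mast cells in the Gata1 value was not tested. Bcl11a, a globin regulator also made by B cells, was at 0.73 and 1.20, Zfpm1, the Gata1 cofactor gene, at 0.79 and 0.26, and Gfi1b at 0.57 and 0.28.

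No late erythroid gene among 13 measured at 3 h and 14 at 0 h was at least 2-fold apart in either direction. Of all measured genes 3.22% at 3 h and 6.07% at 0 h were, so a count of 0 in so short a list is near that share. Hemgn, an erythroid nuclear protein gene, was bright on all 4 arrays, at 6.18 and 4.92 in LysM-St18flox cells and 6.29 and 5.70 in wild-type cells at 3 h and 0 h. The carbonic anhydrase gene Car2 was at 0.43 at 3 h and 0.55 at 0 h, Bpgm, which makes the red cell regulator of oxygen affinity, at 0.46 and 0.26, and Cd24a at 0.44 and 0.56. Ahsp, the alpha globin chaperone gene, had no matched probe.

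Apart from Alas2, the measured genes of heme synthesis and heme disposal lay within 2-fold between the genotypes by their brightest probe. With median scaling 1 disposal gene was lower at 0 h. With no filter on dim probes 1 disposal gene was higher at 0 h. Of 16 heme synthesis genes other than Alas2, all were measured at both times and 0 were at least 2-fold apart between genotypes (medians -0.10 at 3 h and 0.04 at 0 h). Over all measured genes, 3.22% at 3 h and 6.07% at 0 h were apart, so a count of 0 in so short a list is near that share. Alas1, the housekeeping counterpart of Alas2, was at 0.05 and 0.54 by its brightest probe. The dimmest of its 3 probes was more than 2-fold higher in LysM-St18flox cells at 0 h, reading 1.85 against 0.64 in wild-type cells. At 3 h that probe read 3.23 and 3.21. Slc25a37, the mitochondrial iron importer gene, was at -0.65 and -0.64. Slc25a39 was at -0.31 and -0.81 and Abcb6 at -0.42 and -0.62. Genes for the uptake and breakdown of red cells, haemoglobin and heme by macrophages had 16 members measured at 3 h and 15 at 0 h. Again 0 were at least 2-fold apart, with medians of 0.05 and 0.10, and that count too is near the share of all genes. Hmox1, the heme oxygenase gene, was at 0.56 and 0.59, Cd163, the haemoglobin scavenger receptor gene, at -0.29 and -0.38, Cd36 at 0.05 and 0.85, Lrp1 at -0.73 and -0.95 and Sirpa at -0.20 and -0.69.

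**Figure D4:**
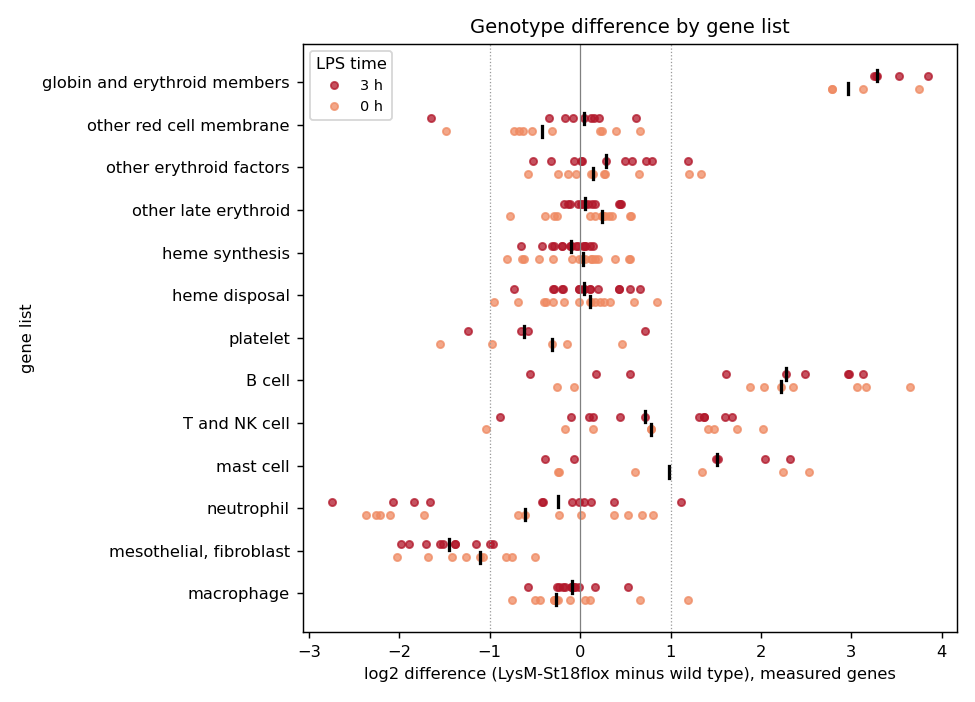
Log2 difference, LysM-St18flox minus wild type (horizontal axis), of each measured gene in 13 lists (vertical axis) at 3 h and 0 h, with the list's median as a black bar and 2-fold as dotted lines. The measured members lie at 2.78 or more, B cell medians at 2.28 and 2.23, and the medians of the other erythroid and heme lists between -0.42 and 0.28.

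Markers of other cells moved with the globins in both directions. B cell markers had 6 of 9 measured genes higher at 3 h and 7 of 9 at 0 h (medians 2.28 and 2.23). Of all measured genes 1.82% and 3.04% were. A further 3 were higher by a bound at each time, where 18.2% and 21.9% of all genes with a bound were. Ms4a1, the CD20 gene, was at 3.12 and 3.65, Fcrla at 2.96 and 3.06 and Pou2af1 at 2.98 and 3.16. Pax5 was at -0.56 and -0.26 and Cd22 at 0.18 and -0.07, both named here after their values were seen. The summed level of the list, in multiples of the array's 75th percentile, was 20.7 and 25.9 in LysM-St18flox cells at 3 h and 0 h, against 4.95 and 6.55 in wild-type cells. That of the 9 members was 96.6 and 82.7 in LysM-St18flox cells, against 9.74 and 11.3 in wild-type cells. T and NK cell markers had 5 of 11 genes higher at 3 h and 4 of 9 at 0 h, with 1 lower at 0 h (medians 0.72 and 0.79). Over all measured genes 1.82% at 3 h and 3.04% at 0 h were higher, and 3.03% at 0 h were lower. Among these markers Cd5 was at 1.68 and 2.02, Cd2 at 1.60 and 1.74, Cd3d at 1.37 and 1.48 and Lck at 1.32 and 1.41. Cd3e was at -0.10 and -0.17, and Cd4, the gene lower at 0 h, at 0.10 and -1.04. Klrb1c, measured at 3 h only, was at -0.89. Cd3e, Cd4 and Klrb1c are named here after their values were seen. Cd8a and Ncr1 were above background on no array. Summed levels were 12.3 and 10.7 in LysM-St18flox cells, against 6.74 and 7.17 in wild-type cells. Mast cell markers had summed levels of 17.7 and 9.61 in LysM-St18flox cells, against 16.1 and 5.17 in wild-type cells (medians 1.51 and 0.98). Most of the 3 h sums came from Hdc, the histidine decarboxylase gene, named here after its values were seen, which read 3.44 and 1.35 in LysM-St18flox cells and 3.82 and 1.58 in wild-type cells at 3 h and 0 h, differences of -0.38 and -0.23. The named mast cell genes differed more, with Cma1, the mast cell chymase gene, at 2.32 and 2.53, Cpa3 at 2.04 and 2.24, Mcpt4 at 1.53 and 1.35 and Tpsb2 at 1.50 and 0.61. The part of these cells in the globin values was not tested.

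Genes that were lower in LysM-St18flox cells were found among neutrophil, platelet and mesothelial markers. Over all measured genes, 1.4% at 3 h and 3.03% at 0 h were at least 2-fold lower. Neutrophil markers had 4 of 12 genes at least 2-fold lower and 1 higher in LysM-St18flox cells at 3 h, and 5 of 13 lower at 0 h (medians -0.25 and -0.61). The higher gene was Retnlg, named here after its values were seen, at 1.11 at 3 h and 0.81 at 0 h. S100a9, a calprotectin gene, was at -2.74 and -2.25, S100a8 at -1.84 and -1.73, Stfa2l1 at -2.07 and -2.11 and Lcn2 at -1.67 and -2.37. Their summed level was 176 and 166 in LysM-St18flox cells, against 252 and 166 in wild-type cells. Csf3r, named here after its values were seen, gave much of each sum and differed by -0.01 at 3 h and 0.69 at 0 h. Platelet markers had 4 of 12 genes above background on no array (Itga2b, Gp9, Gp1ba and Tubb1), and those measured had medians of -0.62 at 3 h and -0.31 at 0 h, with 1 gene lower at each time and 2 higher by a bound at 3 h. Their summed level of 98.3 and 83.7 in LysM-St18flox cells, against 146 and 164 in wild-type cells, came mostly from Pf4, which macrophages also express (-0.58 and -0.98). Ppbp was at -1.24 and -1.55, Treml1 at -0.66 and -0.15 and Clec1b at 0.71 and 0.47.

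Mesothelial and fibroblast markers had 8 of 10 genes lower at 3 h and 6 of 9 at 0 h (medians -1.45 and -1.10), where 1.4% and 3.03% of all measured genes were. Col3a1, a fibrillar collagen gene, was at -1.98 and -2.03, Col1a1 at -1.89 and -1.26, Krt19 at -1.70 and -1.69 and Krt8 at -1.16 and -1.42. Their summed level was 4.84 and 6.17 in LysM-St18flox cells, against 13.6 and 13 in wild-type cells. Of 13 macrophage markers, 0 were at least 2-fold apart at 3 h and 1 was higher at 0 h, Lyz2 at 1.20 (-0.23 at 3 h), with medians of -0.09 and -0.26. Over all measured genes 3.22% at 3 h and 6.07% at 0 h were at least 2-fold apart. Cd14 was at -0.25 and -0.75, Marco at -0.19 and 0.66 and Cx3cr1 at -0.57 and -0.44.

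Outside the lists, and leaving out predicted genes, clone names and accession-like names, the genes nearest to the globins in profile over the 4 arrays were Mzb1, Ly6d, Fcmr and Ikzf3. Likeness was measured as the root-mean-square distance, over 4 arrays, between a gene's centred log2 profile and the mean centred profile of the 4 adult globins measured on all of them. After these exclusions 11488 genes were compared. Mzb1, a gene of antibody-secreting and innate-like B cells, lay nearest at 0.25, followed by Ly6d at 0.32, Fcmr, which encodes the IgM Fc receptor, at 0.39, and the lymphoid factor gene Ikzf3 at 0.43. Next were Scd1, the stearoyl-CoA desaturase gene, at 0.47, Ccr6 at 0.52, Tnfrsf13c, the BAFF receptor gene, at 0.55 and Spib at 0.56. The globins themselves lay at 0.07 (Hbb-b2) to 0.28 (Hbb-bt). Mzb1 differed by 3.07 at 3 h and 3.02 at 0 h, and Scd1 by 2.32 and 2.56.

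Neighbours of the globin clusters, examined after the member values were seen, were within 2-fold between the genotypes where measured. Of the 6 nearest protein-coding genes with a probe around the alpha cluster, 5 were above background on all 4 arrays. Their genotype differences lay between -0.17 and 0.06 at 3 h and between -0.45 and 0.67 at 0 h. Over all measured genes only 3.22% at 3 h and 6.07% at 0 h were at least 2-fold apart. A count of 0 among so few neighbours is near that share. Nprl3, whose introns hold enhancers of the alpha globin genes, was at -0.17 and -0.28. All 6 neighbours of the beta cluster were olfactory receptor genes, and 0 of them was above background.

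After LPS the measured members were within 2-fold of their 0 h values in both genotypes. In LysM-St18flox cells 6 members were measured at both times and 0 were at least 2-fold apart, where 17.1% of 12976 genes were. In wild-type cells 4 were measured and 0 were 2-fold apart, where 20.7% of 12589 genes were. Counts of 0 among so few genes are near those shares, so nothing particular to the members is read from them. The difference, 3 h minus 0 h, was 0.25 for Hbb-bt, 0.08 for Hbb-b2, -0.07 for Hbb-b1, 0.23 for both alpha globins and 0.01 for Alas2 in LysM-St18flox cells. In wild-type cells it was 0.15 for Hbb-bt, -0.32 for Hbb-b2, -0.23 for Hba-a1 and -0.25 for Hba-a2. Hbb-b1 was above background at 3 h alone in wild-type cells, with a bound of at least 1.14-fold higher. Of genes with a bound in either direction there, 22.7% were higher at 3 h by 2-fold or more. The second Hba-a1 probe gave 0.17 in LysM-St18flox cells and -0.60 in wild-type cells. Adult globin medians were 0.23 in LysM-St18flox cells and -0.24 in wild-type cells, beside -0.09 and -0.11 over all measured genes, and the LysM-St18flox median was -0.01 with quantile normalization and -0.03 in the deposited values.

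**Figure D5:**
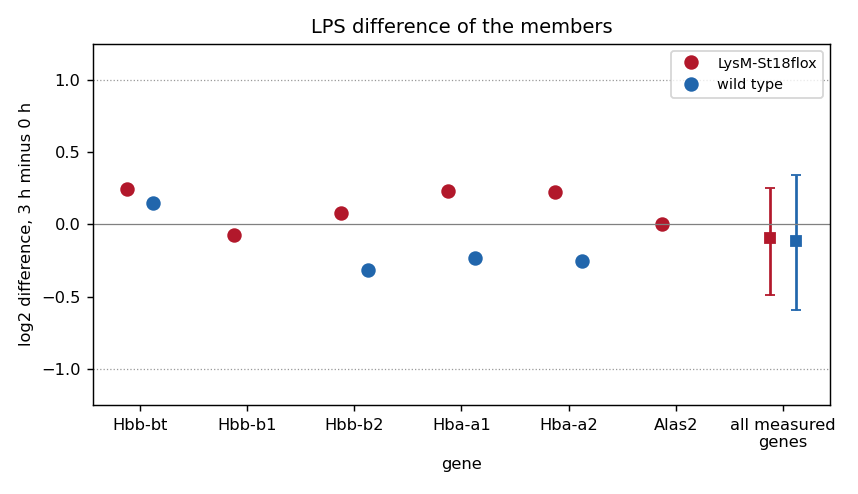
Log2 difference, 3 h minus 0 h (vertical axis), of the 6 members measured at both times in LysM-St18flox cells and of the 4 measured in wild-type cells, with the median and quartiles of all measured genes at the right and 2-fold as dotted lines. Every member point lies between -0.32 and 0.25.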

How the data were processed

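Total RNA of each sample was labelled with Cy3 and hybridised to an Agilent 1-colour array. The deposited spot intensity values came from Agilent Feature Extraction 11.0.1.1 (per the submitters' processing notes). Per the file headers, which list background-subtracted signals and spatial detrending statistics but no dye normalization, they are not scaled between arrays. The deposited value table holds log2 values of 25482 probes whose 4 columns have the same median (9.58), and how it was normalized is not stated. Its columns correlated with their own array at 0.9997 or more and with any other array at 0.991 or less. Each column thus goes with its labelled array, while a correlation does not show whether the scale is the same.

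From the intensities, spots of a probe were averaged as log2 values, leaving out outlier flags, then the 75th percentile of the array was subtracted. Genes were named by matching unversioned accessions to RefSeq (GRCm38.p6), while the file headers name another build. A gene's brightest probe stood for it. It was measured when well above background on both arrays of a comparison. With 1 side above background, the bright value over the higher of the dim probe's value and the dim array's lowest value well above background gives "at least N-fold". A gene whose ratio did not exceed 1 was given no bound. No test was run, since no group has a replicate and the members were chosen with these contrasts known. A fit of genotype and time without their interaction, with 1 residual degree of freedom, was left out. The number of arrays limits the precision. Calculations used Python 3.11.15 and limma 3.58.1 (normexp, offset 50, on median signals, since the files hold no mean signals), and were tested on simulated data.

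The members and the 14 gene lists were chosen with earlier results of these data known. Named were all members, the embryonic globins, up to 4 genes a list with the largest mean absolute genotype difference over both times, a few genes always (among them Ahsp, Gata1, Hmox1, Cd163 and Alas1), and the 8 genes of nearest profile. Some genes that this rule names are not reported here. List genes above background on no array and the cluster neighbours were named after their values were seen. Alternatives were normexp, median and quantile scaling, the mean of probes, a stricter filter and none on dim probes (stricter: at least 4 times the lowest signal well above background), and the deposited values.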

Additional observations from a re-analysis of the deposited data

Results flagged for a closer look

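Some alpha and beta globin genes had LPS differences of opposite sign in the 2 genotypes, higher at 3 h in LysM-St18flox cells and lower in wild-type cells. The LysM-St18flox response minus the wild-type response was 0.48 on the log2 scale for Hba-a2, 0.46 for Hba-a1 and 0.39 for Hbb-b2. With 1 array a group this difference was not tested, and each response is under 2-fold. For both alpha globins the LysM-St18flox response was -0.09 with quantile normalization, and the wild-type response was -0.34 for Hba-a1 and -0.35 for Hba-a2, so the signs were then the same.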

How the results depend on the processing

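No block on replicate number could be fitted, since the labels give none, and a pairing of the genotypes by LPS time was not run. Leaving out an array would empty its group. The count of members at least 2-fold higher, measured or by a bound, was 6 at 3 h and 6 at 0 h, and over the 7 alternatives it ranged from 4 to 7 at 3 h and from 4 to 6 at 0 h. The 4 in the deposited values reflect a table that lists 4 members. The adult globin median stayed between 3.24 and 3.40 at 3 h and between 2.81 and 3.13 at 0 h. For LPS in wild-type cells, 2 members were 2-fold apart with no filter on dim probes, against 0 otherwise, both from probes not well above background at 1 or both times. The LysM-St18flox LPS median ranged from -0.03 to 0.46, crossing 0. Of 151 values for single members under the alternatives, 11 moved by over 1.5-fold, all for Hbb-b1 or Alas2, and no value of 2-fold or more changed sign. The LPS differences of both alpha globins in LysM-St18flox cells did change sign, to between -0.09 and -0.08, with quantile normalization and in the deposited values. Those settings gave nearly the same values, such as 3.18 under each for the Hba-a2 genotype difference at 3 h. They are therefore not separate checks. Hbb-b1 fell to bounds of 1.74 and 1.55 with the stricter filter, whose limit is higher by construction. Scaling on the median put the median of all genes at 0.14, against -0.09, for LPS in LysM-St18flox cells and at -0.18, against -0.03, for genotype at 0 h. Dim signal limits what can be said of Alas2, Slc4a1, Klf1 and Epb42.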
